A study of Homo sapiens with 12 samples.

Results

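The death-receptor route to apoptosis was followed through 8 genes: the death ligand TNFSF10 (TRAIL), its receptors TNFRSF10A (DR4), TNFRSF10B (DR5) and TNFRSF10D (DcR2), the receptors FAS and TNFRSF12A (Fn14), the initiator caspase CASP8 and its inhibitor CFLAR (c-FLIP). All probes that the platform annotation assigns to these symbols were taken, which gave 13 of the 47313 probes and 8 of the 20043 symbols on the array. TNFRSF10B has 3 probes, CASP8 has 4 and each other gene has 1. Their transcripts were read on 12 Illumina bead arrays, in 4 groups of 3, from the ovarian cancer cell line SK-OV-3. The cells had received a scrambled shRNA (shCTRL) or one directed at IRF-1 (shIRF1), a transcription factor induced by interferons. Either kind was studied untreated and after 24 hours of CDDP, the DNA-crosslinking drug cisplatin, whose dose the sources used here do not give. The labels call the cells transfected and do not say whether a pool or a clone was used. Cells without an shRNA are not among these samples.

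In this pathway TNFSF10 binds trimeric receptors on the cell surface. TNFRSF10A and TNFRSF10B carry a death domain that recruits the adaptor FADD and pro-caspase-8, whereas TNFRSF10D has a truncated death domain and acts as a decoy. FAS signals to caspase-8 in the same way after binding FASLG, and TNFRSF12A, the receptor of TNFSF12 (TWEAK), has no death domain. CFLAR resembles caspase-8, competes with it at the receptor and limits its activation. TNFRSF10B and FAS are known targets of p53, which SK-OV-3 cells lack, and TNFSF10 is a known target of interferon regulatory factors.

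Because the shRNA was directed at IRF-1, promoter windows of 4 of the genes were searched on both strands for an IRF-type motif. The windows (RefSeq, GRCh38.p14) ran from 250 bases before to 50 bases after an annotated start. The motif was the letters GAAA, any 2 bases and GAAA. There was 1 window for TNFSF10, 3 for CASP8, 4 for CFLAR and 3 for FAS. The receptors DR4, DR5, DcR2 and Fn14 were not searched, so no motif is shown to be present in or absent from their promoters. The motif was found in 2 of these 11 windows and in 3.57% of all 35116 windows. It began at position -187 from the start in the TNFSF10 window chr3:172523381-172523680 (minus strand) and at -3 in the CASP8 window chr2:201233213-201233512 (plus strand). These windows are shown with the matched letters, which hold the motif on the opposite strand, in capitals. A match describes letters and is not a binding site.
TNFSF10: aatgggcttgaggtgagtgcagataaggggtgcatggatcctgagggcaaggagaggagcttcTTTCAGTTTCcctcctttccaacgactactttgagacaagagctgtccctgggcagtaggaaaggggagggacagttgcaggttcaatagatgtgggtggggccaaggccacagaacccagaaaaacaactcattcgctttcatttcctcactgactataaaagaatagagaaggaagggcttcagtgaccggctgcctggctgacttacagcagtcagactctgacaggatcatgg
CASP8: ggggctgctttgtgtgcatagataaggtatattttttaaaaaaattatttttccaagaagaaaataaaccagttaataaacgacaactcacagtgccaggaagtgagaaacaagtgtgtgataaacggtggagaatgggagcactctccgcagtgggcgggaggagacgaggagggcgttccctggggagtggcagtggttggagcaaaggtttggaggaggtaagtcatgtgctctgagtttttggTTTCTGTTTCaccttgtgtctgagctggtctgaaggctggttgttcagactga
An NF-kB-type motif (GGGA, any 2 bases, TTCC), which 1.61% of all windows hold, was found in none of the 11 windows. The AP-1 motif TGANTCA, held by 7.71% of all windows, was found in 2 windows of CASP8, 1 of CFLAR and 1 of FAS.

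Between 18075 and 21126 probes were detected on an array (38.2% to 44.7%), where detected means a detection p-value under 0.05 against the negative controls of that array. Signals were normalized to a log2 level, and a change was called when limma's p-value, adjusted over all 22260 probes detected on at least 3 arrays, was under 0.05. The labels do not state separate cultures, so the spread behind each p-value is that of these samples and may be technical. IRF1 itself had a mean log2 level of 8.21 ± 0.34 under shCTRL and 8.31 ± 0.25 on arrays labelled shIRF1 (SD, n = 3 each; limma adjusted p = 0.909), and 9.91 ± 0.50 against 9.09 ± 0.16 with CDDP, with no overlap (log2 -0.82, adjusted p = 0.0868). That lower level with CDDP passed under 3 of 23 alternatives, on the deposited matrix values (-0.77, adjusted p = 0.0381), with a variance trend (-0.82, 0.048) and without shCTRL array 3 with CDDP (-1.08, 0.0238), and its adjusted p reached 0.246 under another. The transcript of the shRNA's target was thus not measurably lower without CDDP (1 probe, interval -0.43 to 0.62), and its protein was not read. The knockdown that the label implies is therefore not seen here without CDDP, and these samples are called arrays labelled shIRF1 throughout. Of 9 markers of ovarian carcinoma and epithelium, 6 were detected on all 12 arrays, among them PAX8, EPCAM and KRT7. KRT18 was detected on at most 11, MUC16 on at most 5 and WT1 on at most 3. With CDDP 3 of the 9 fell under shCTRL and 4 on arrays labelled shIRF1, led by KRT19 (log2 -2.17 and -1.98). Beside them, 31.7% and 26.6% of 12492 named genes, each read from its brightest probe, were called in either direction. Of other cell types' markers, PTPRC of leukocytes was detected on at most 1 array, CD3E, CDH5 and VWF of T cells and endothelium and COL3A1 of fibroblasts on 0, and DCN and PDGFRA of fibroblasts on at most 2. The endothelial marker PECAM1 was detected on at most 3 arrays, the fibroblast marker LUM on 9, CD68 on all 12 and CD14 on 10. LUM, with levels from 4.45 to 7.0, was 2.16-fold higher on arrays labelled shIRF1 without CDDP with no overlap (log2 1.11, SE 0.42, limma adjusted p = 0.165), and 1.03 higher with CDDP (adjusted p = 0.203). CD68 was lower on arrays labelled shIRF1 without and with CDDP (log2 -0.75 and -0.79) and CD14 rose with CDDP under shCTRL (1.22), and the part of these shifts in the results was not tested. The labels name only SK-OV-3 cells, so these markers are read as transcripts of the culture and not as shares of other cell types. In RNA from whole cultures, fewer cells that carry a transcript and less of it per cell cannot be told apart.

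Detection separated the genes before any test. TNFRSF12A, CFLAR, TNFRSF10A, TNFRSF10D and 2 of the 3 TNFRSF10B probes were detected on all 12 arrays. TNFSF10 was detected on 8 arrays, and 2 of the 4 CASP8 probes on 10 and 9. The FAS probe and the other 2 CASP8 probes were detected on none, so they were not tested and only a background bound exists for them. This left 10 probes of 7 genes in the fit. TNFSF10 and the TNFRSF10B probe ILMN_1812915 passed the detection filter without being detected in every group, so counts over the tested probes describe and do not support.

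**Figure D1:**
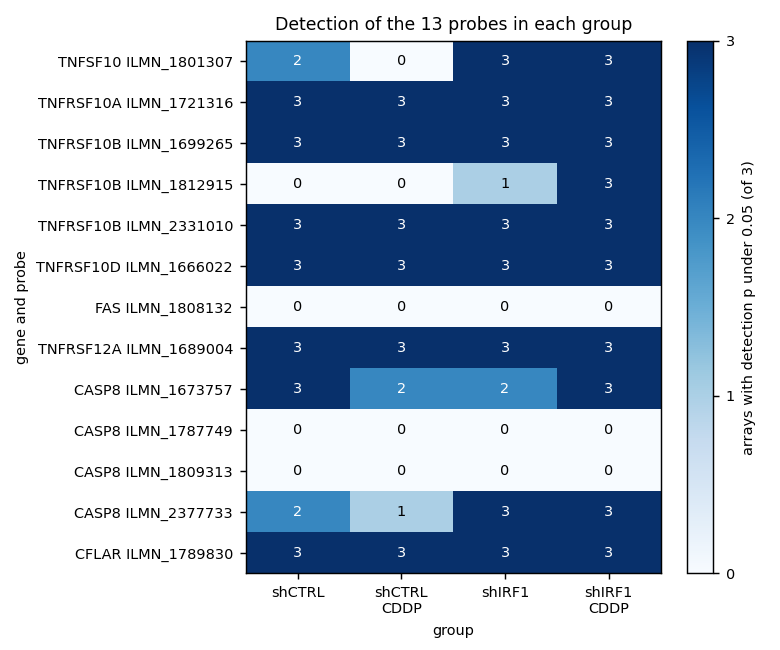
Number of arrays, of 3 in each group, on which each of the 13 probes was detected (detection p-value under 0.05), with probes in rows and groups in columns and darker colour for more arrays. TNFSF10 went from 2 arrays under shCTRL to 0 with CDDP and stood at 3 in both groups labelled shIRF1, while FAS and 2 CASP8 probes stood at 0 in every group.

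Of the 10 tested probes 2 were called between the shRNA labels without CDDP, both higher (TNFSF10 and the brightest TNFRSF10B probe). Of all 22260 probes 5.34% were called, 2.71% higher and 2.63% lower. With CDDP limma called 0 of 10 beside 3.57% of all probes, and 4 of the 10 had an unadjusted p under 0.05. CDDP called 3 of 10 under shCTRL, all higher, beside 26.3% (12.8% higher and 13.5% lower), and 5 of 10 on arrays labelled shIRF1, 4 higher and 1 lower, beside 21.2% (10.2% higher and 11% lower). Both shares under CDDP rest on few probes against a large background. The arrays of the compared groups did not overlap for 2 of 10 probes between the shRNA labels without CDDP and 3 with it, beside 24.7% and 20.9% of all probes, and for 4 and 7 with CDDP under shCTRL and shIRF1, beside 39.6% and 36.6%. For the difference between the CDDP responses limma called 0 of 10 beside 0.0809%, with 1 at an unadjusted p under 0.05. The median log2 change of the 10 probes was 0.12, 0.44, 0.25 and 0.64 in the 4 comparisons, where the median of all probes was -0.00, 0.00, 0.02 and 0.02. Comparisons that share a group share its arrays, so these medians are not independent of each other.

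**Figure D2:**
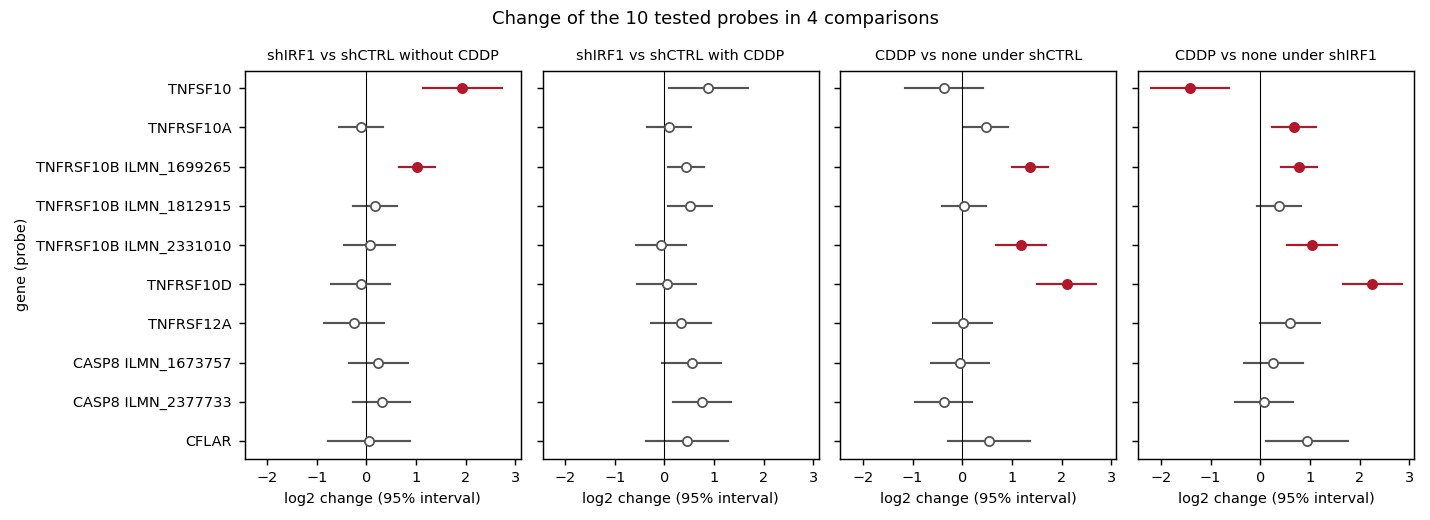
Log2 change with its 95% interval (horizontal axis) of the 10 tested probes in the 4 pairwise comparisons, with filled red points for limma adjusted p-values under 0.05. Only TNFSF10 (1.93) and TNFRSF10B (1.01) are called between the shRNA labels, and TNFRSF10D (2.10 and 2.26) lies farthest from 0 with CDDP.

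TNFSF10, the ligand that binds the death receptors DR4 and DR5, stood higher in the shIRF1-labelled group than in shCTRL cells, and fell there with CDDP. Without CDDP the shCTRL arrays read 111, 99.5 and 90.2 units of raw signal, and those labelled shIRF1 read 251, 137.0 and 229. shCTRL array 3 was not detected (detection p-value of 0.501). The log2 levels were 5.59, 5.0 and 4.44 for shCTRL, against 7.82, 5.96 and 7.04 for shIRF1. Every array labelled shIRF1 lay above every shCTRL array, with array 2 closest to the controls. The group means, 5.01 ± 0.57 and 6.94 ± 0.93 (SD, n = 3 each), differed by 3.81-fold (log2 1.93, SE 0.37, 95% interval 1.14 to 2.72, limma adjusted p = 0.00514). Across 22 alternatives the call held with an adjusted p between 0.000411 and 0.0371, and its size depended on the background step, with a log2 difference of 0.87 when no background was subtracted.

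With CDDP the TNFSF10 levels were 4.90, 4.40 and 4.64 for shCTRL, against 5.29, 5.52 and 5.78 for shIRF1. The shCTRL group with CDDP was not detected on any array, whereas all 3 arrays labelled shIRF1 were. The difference between the group means is therefore a bound against background, at least 1.51-fold higher on arrays labelled shIRF1, which leaves out the spread of the arrays. The measured means were 4.65 ± 0.25 and 5.53 ± 0.24 (SD, n = 3 each). Their difference did not pass (log2 0.88, SE 0.37, interval 0.09 to 1.67, limma adjusted p = 0.223). Between the arrays labelled shIRF1 without and with CDDP, TNFSF10 fell 2.66-fold (log2 -1.41, SE 0.37, interval from -2.20 to -0.62, limma adjusted p = 0.0126), and the groups did not overlap. That call was lost without array 1 labelled shIRF1 (log2 -0.98, adjusted p = 0.0712), without array 1 labelled shIRF1 with CDDP (-1.30, 0.0538) and with no detection filter (-1.41, 0.0505). Under shCTRL the change with CDDP was -0.36 (SE 0.37, adjusted p = 0.526), toward a group that was not detected. The fitted difference between the CDDP responses was -1.05 (SE 0.53, interval -2.16 to 0.07, limma adjusted p = 0.647), and as it involves that group it is not read as a difference. The order of the means from low to high was shCTRL with CDDP, shCTRL, shIRF1 with CDDP and shIRF1, and only the last lay clear of its neighbour.

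TNFRSF10B (DR5), the death receptor that recruits FADD and caspase-8, rose with CDDP under either shRNA label in 2 of its 3 probes, and rose on arrays labelled shIRF1 in 1 of the 3. For the brightest probe, ILMN_1699265, the levels were 8.90, 8.84 and 9.15 under shCTRL, 9.86, 9.87 and 10.19 on arrays labelled shIRF1, 10.24, 10.29 and 10.47 under shCTRL with CDDP, and 10.82, 10.68 and 10.79 on arrays labelled shIRF1 with CDDP. The 4 groups stood in that order with no overlap between neighbours. CDDP raised this probe 2.59-fold under shCTRL (log2 1.37, SE 0.17, interval from 1.01 to 1.73, limma adjusted p = 2.71e-05). The rise in the group labelled shIRF1 was 1.73-fold (0.79, SE 0.17, interval from 0.43 to 1.15, adjusted p = 0.0035). Both rises passed under each of 23 alternatives. The difference between these rises was -0.58 (SE 0.24, interval -1.10 to -0.07) and did not pass (limma adjusted p = 0.579, unadjusted 0.0281). Without CDDP the probe was 2.02-fold higher in the group labelled shIRF1 (1.01, SE 0.17, interval from 0.65 to 1.38, adjusted p = 0.00182), a call lost with median scaling in place of quantiles (0.90, adjusted p = 0.115). With CDDP it was 0.43 higher (SE 0.17, interval 0.07 to 0.79), with no overlap but an adjusted p of 0.191, which passed only when no background was subtracted (adjusted p = 0.0487).

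The other TNFRSF10B probes passed no comparison of the shRNA labels, and the difference between probes was not tested. ILMN_2331010, detected on all 12 arrays, had levels of 5.32, 5.82 and 5.18 under shCTRL, 5.48, 5.05 and 5.99 where labelled shIRF1, 6.42, 6.81 and 6.64 under shCTRL with CDDP, and 6.72, 6.41 and 6.52 where labelled shIRF1 with CDDP. Arrays with CDDP lay above those without it under either label, while the labels overlapped, with means of 5.44 ± 0.34 under shCTRL and 5.50 ± 0.47 on arrays labelled shIRF1, and 6.62 ± 0.20 and 6.55 ± 0.15 with CDDP (SD, n = 3 each). It rose with CDDP 2.27-fold under shCTRL (log2 1.18, SE 0.24, limma adjusted p = 0.00164) and, where labelled shIRF1, 2.07-fold (1.05, SE 0.24, adjusted p = 0.00499). Its difference between the shRNA labels without CDDP was 0.06 (interval -0.44 to 0.57), where the brightest probe gave 1.01 (interval 0.65 to 1.38). The raw signals of ILMN_2331010 lay near background (104 to 190), which limits this comparison. Its rises with CDDP passed under all 21 alternatives in which it was tested, but were as low as 0.50 under shCTRL and 0.43 where labelled shIRF1. ILMN_1812915 was detected on 1 array labelled shIRF1 and on all 3 of these with CDDP, and on no shCTRL array. Its mean level with CDDP was at least 1.08-fold higher in the shIRF1-labelled group than in shCTRL cells, a bound that leaves out the spread of the arrays. The difference did not pass (log2 0.52, SE 0.21, interval 0.07 to 0.96, limma adjusted p = 0.209). The sources used here do not say which transcripts each probe reads, and the TNFRSF10 genes are related neighbours on chromosome 8, so cross-reading between them was not tested.

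TNFRSF10D (DcR2), the decoy receptor, had the largest change of the 10 tested probes with CDDP and did not differ measurably between the shRNA labels. Its levels were 6.13, 6.47 and 7.22 under shCTRL and 8.65, 8.95 and 8.52 with CDDP. On arrays labelled shIRF1 they were 6.26, 6.67 and 6.57, and with CDDP 8.99, 9.07 and 8.20. All 6 arrays with CDDP lay above all 6 without it. The rise was 4.28-fold under shCTRL (log2 2.10, SE 0.28, interval from 1.5 to 2.69, limma adjusted p = 5.22e-05). Where labelled shIRF1 it was 4.78-fold (2.26, SE 0.28, interval from 1.66 to 2.85, adjusted p = 3.59e-05). It passed under all 23 alternatives, with a log2 rise of at least 1.42 and 1.54. The difference between the rises was 0.16 (interval -0.68 to 1.00). Between the shRNA labels it differed by -0.11 without CDDP (interval -0.71 to 0.48) and by 0.05 with CDDP (interval -0.55 to 0.64).

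TNFRSF10A (DR4), the other death-domain receptor of TNFSF10, changed less. Its levels were 6.09, 5.92 and 5.79 under shCTRL, 6.40, 6.43 and 6.38 with CDDP, 5.99, 6.04 and 5.43 on arrays labelled shIRF1, and 6.54, 6.82 and 6.14 there with CDDP. Arrays with CDDP lay above those without it within either shRNA label. The rise passed on arrays labelled shIRF1 (1.60-fold, log2 0.68, SE 0.21, interval from 0.23 to 1.13, limma adjusted p = 0.0309) and not under shCTRL (0.47, SE 0.21, interval 0.02 to 0.92, adjusted p = 0.116). The difference between them was 0.21 (interval -0.43 to 0.84, adjusted p = 0.902). The call was lost without array 3 labelled shIRF1 (0.48, adjusted p = 0.147) and without array 1 (0.67, 0.0776) or 2 (0.52, 0.14) labelled shIRF1 with CDDP. It was also lost with median scaling (0.63, 0.146), with only the compared groups in the fit (0.68, 0.0662) and with a variance trend (0.68, 0.0528). Raw signals of TNFRSF10A lay near background (122 to 208). Across the alternatives its log2 rise was as low as 0.21 under shCTRL and 0.30 where labelled shIRF1.

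TNFRSF12A (Fn14), the receptor of TWEAK, was well above background on every array and passed no test. Its levels were 11.41, 11.49 and 11.18 under shCTRL, 11.69, 11.87 and 10.52 with CDDP, 10.88, 11.21 and 11.21 on arrays labelled shIRF1, and 11.83, 11.86 and 11.40 there with CDDP. shCTRL array 3 with CDDP was the lowest of all 12, below both others of its group. With CDDP the arrays labelled shIRF1 rose by a log2 value of 0.60 that did not pass (SE 0.28, interval 0.00 to 1.2, limma adjusted p = 0.159), although the groups did not overlap. Without shCTRL array 3 with CDDP, which also enters the shared estimate of the spread, it passed (0.60, adjusted p = 0.0303). FAS, the receptor of FASLG, had raw signals of 76.3 to 95.5 on the 12 arrays and detection p-values of 0.1 or above, so its only probe was not detected in any group. The sources used here do not say which transcripts this probe reads, so FAS is not shown to be absent.

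CASP8, the caspase that the receptors activate, was near background. Its probe ILMN_2377733 had levels of 5.51, 5.75 and 4.70 under shCTRL, 4.84, 5.34 and 4.66 with CDDP, 5.46, 5.55 and 5.87 on arrays labelled shIRF1, and 5.77, 5.33 and 6.01 there with CDDP. Neighbouring groups overlapped throughout. The largest difference, with CDDP between the shRNA labels, was 0.76 (SE 0.27, interval 0.18 to 1.33) and did not pass (limma adjusted p = 0.146). The probe ILMN_1673757 gave 0.55 in the same comparison (SE 0.28, adjusted p = 0.317), which was 0.32 without array 3 of either group, and no CASP8 change passed under any alternative.

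CFLAR, the inhibitor of caspase-8 activation, had levels of 7.75, 7.49 and 6.90 under shCTRL, 8.32, 7.63 and 7.77 with CDDP, 7.95, 8.02 and 6.32 on arrays labelled shIRF1, and 8.91, 8.14 and 8.05 there with CDDP. Array 3 labelled shIRF1 was the lowest of the 12. The change with CDDP was 0.53 under shCTRL (SE 0.39, interval -0.30 to 1.36, limma adjusted p = 0.36) and 0.94 in the group labelled shIRF1 (SE 0.39, interval from 0.11 to 1.77, adjusted p = 0.105). The latter groups did not overlap. That change was 0.38 without array 3 labelled shIRF1 (adjusted p = 0.451), and it passed under 2 of 23 alternatives, with median scaling (0.92, adjusted p = 0.0453) and with the replicate number as a block (0.94, 0.0242). The change under shCTRL was 0.29 without shCTRL array 3 (adjusted p = 0.687) and 0.32 without shCTRL array 1 with CDDP (0.643).

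Other ligands of the family were read from the brightest tested probe of each gene, as were the lists that follow, and the same 12492 named genes serve as their background. Of 10 tested ligands (17 listed), 3 rose and 1 fell with CDDP under shCTRL and 4 rose on arrays labelled shIRF1, beside 31.7% and 26.6% of named genes called. TNF, the ligand of TNFRSF1A, was not detected on any shCTRL array and was at least 35.5-fold higher with CDDP (limma adjusted p = 1.00e-07), and it rose 16.8-fold where labelled shIRF1 (log2 4.07, SE 0.34, adjusted p = 1.05e-06). LTA, a lymphotoxin that binds the same receptor, rose 1.99-fold under shCTRL (1.00, SE 0.25, adjusted p = 0.00747), and TNFSF9, which costimulates T cells, rose 1.92-fold where labelled shIRF1 (0.94, SE 0.22, adjusted p = 0.00585). These calls, and only these, remained with each array left out in turn. The further rises of LTA where labelled shIRF1 (0.81, limma adjusted p = 0.0298) and of TNFSF9 under shCTRL (0.63, 0.0443) did not. The 4 rises became 2 without array 2 or 3 labelled shIRF1, or array 1 or 2 of these with CDDP. The count of 1 fall under shCTRL (CD70) became 0 without any of the 3 shCTRL arrays, shCTRL array 2 with CDDP or array 2 labelled shIRF1. It became 2 without array 3 labelled shIRF1. Without shCTRL array 1 with CDDP the count stayed at 1, but CD70 was lost (-0.59, limma adjusted p = 0.0965) and TNFSF12 passed (-0.70, 0.0363). The ligands' median change was 0.31 and 0.53, against 0.03 and 0.01 for all named genes.

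Between the shRNA labels 2 ligands were called without CDDP, beside 6.93% of named genes. TNF was at least 3.89-fold higher where labelled shIRF1 (limma adjusted p = 0.00149), which did not pass when no background was subtracted (log2 0.86, adjusted p = 0.0806). TNFSF12 (TWEAK), the ligand of TNFRSF12A, was lower (-0.74, SE 0.21, adjusted p = 0.0484), a call that remained without array 3 labelled shIRF1 or shCTRL array 1 or 3 with CDDP and was lost without any 1 of the other 9 arrays. With CDDP limma called 0 of the 10, beside 4.46% of named genes, with 4 at an unadjusted p under 0.05, and 1 was called without array 3 labelled shIRF1 or array 2 of these with CDDP. The medians were 0.12 and 0.07, against 0.00 and 0.00 for all named genes.

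Of 12 tested receptors beside those described (24 listed), 2 were higher and 1 lower on arrays labelled shIRF1 without CDDP, beside 6.93% of named genes called. With CDDP 3 were higher and 1 lower on arrays with that label, beside 4.46%, and the medians were 0.26 and 0.22. TNFRSF11B (osteoprotegerin), a secreted decoy that also binds TNFSF10, was 5.04-fold higher without CDDP (log2 2.33, SE 0.20, limma adjusted p = 3.59e-06) and 2.07-fold higher with it (1.05, SE 0.20, adjusted p = 0.00632). Where labelled shIRF1 it fell 3.16-fold with CDDP (-1.66, SE 0.20, adjusted p = 2.42e-05). TNFRSF1A, the death-domain receptor of TNF, fell 2.26-fold with CDDP there (-1.17, SE 0.18, adjusted p = 0.000238). TNFRSF19, a receptor without a death domain, was lower on arrays labelled shIRF1 without CDDP (-1.17, SE 0.22, adjusted p = 0.00498). These calls passed under every alternative in which the gene was tested. TNFRSF1A also fell with CDDP under shCTRL (-0.54, limma adjusted p = 0.0364), a call kept under 17 of 23 alternatives.

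The further receptor calls between the shRNA labels were less stable. TNFRSF1A was higher without CDDP (0.79, SE 0.18, limma adjusted p = 0.0159), which did not pass without shCTRL array 1 (0.68, adjusted p = 0.0862) or array 1 (0.79, 0.0613) or 3 (0.72, 0.0675) labelled shIRF1. Nor did it pass with median scaling (0.69, 0.333). With CDDP the call of TNFRSF21 (DR6), an orphan death-domain receptor (0.94, SE 0.18, adjusted p = 0.00912), was lost without array 3 labelled shIRF1 with CDDP (0.78, adjusted p = 0.0538) or with median scaling (0.90, 0.154). That of CD40, the costimulatory receptor (1.35, SE 0.29, adjusted p = 0.016), was lost without shCTRL array 3 with CDDP (1.08, 0.0654) or array 1 labelled shIRF1 with CDDP (1.02, 0.0709). It was also lost with only the compared groups in the fit (1.35, 0.0688). That of TNFRSF19 (-0.87, SE 0.22, adjusted p = 0.0452) was lost without any 1 of 9 arrays (adjusted p up to 0.14) and with median scaling (-0.69, 0.328). CDDP lowered 3 of the 12 receptors and raised 0 under shCTRL, with 4 at an unadjusted limma p under 0.05, beside 31.7% of named genes called. Besides TNFRSF1A these were TNFRSF19 (-0.93, limma adjusted p = 0.00608, kept under 22 of 22 alternatives) and TNFRSF21 (-0.77, 0.0058, kept under 22 of 23). Where labelled shIRF1 neither fall passed (-0.62, 0.0622 and -0.14, 0.676), nor did the difference between responses (0.31, 0.853 and 0.63, 0.579). CDDP lowered 2 and raised 1 (CD40) where labelled shIRF1, beside 26.6%, and the medians were -0.15 and -0.02. The count of 2 became 4 without shCTRL array 2 or array 1 labelled shIRF1 with CDDP. The count of 1 became 0 without any of the 3 arrays labelled shIRF1 or array 1 or 2 of these with CDDP, and 2 without array 3 of these.

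Of 25 tested adaptors and regulators of the receptor complexes (32 listed), 7 rose and 5 fell with CDDP under shCTRL, beside 31.7% of named genes called in either direction, and 7 rose and 2 fell on arrays labelled shIRF1, beside 26.6%, with medians of 0.19 and 0.25. TNFAIP3 (A20), a ubiquitin-editing inhibitor of NF-kB, rose 20.2-fold (log2 4.34, SE 0.26, limma adjusted p = 5.99e-08) and 14.4-fold (3.85, SE 0.26, adjusted p = 1.80e-07). FAF1, a FAS-associated factor, fell 6.98-fold and 6.21-fold (-2.80 and -2.64, SE 0.22 each, adjusted p = 4.81e-07 and 1.07e-06). CRADD, an adaptor that joins PIDD1 to caspase-2, fell 5.03-fold and 3.97-fold (-2.33 and -1.99, SE 0.22 each, adjusted p = 2.33e-06 and 1.39e-05), while PIDD1, a p53-induced death-domain protein, rose 2.94-fold under shCTRL (1.55, SE 0.21, adjusted p = 6.24e-05). PIDD1 rose as well where labelled shIRF1 (0.95, adjusted p = 0.00407). The brightest probe of TRAF1, an adaptor of TNF receptors, was not detected on arrays labelled shIRF1 without CDDP, and its mean was at least 1.53-fold higher with it (adjusted p = 0.00541). Another TRAF1 probe, ILMN_2171789, was not detected on arrays labelled shIRF1 with CDDP (mean 4.52, against 4.82 without it). Under shCTRL the brightest probe also rose (0.74, adjusted p = 0.0221). That call was lost without shCTRL array 1 (0.66, 0.0847) or 2 (0.67, 0.0792), or array 1 (0.67, 0.0711) or 2 (0.60, 0.0972) of these with CDDP. It was also lost with no background correction (0.26, 0.0542), offset 50 (0.36, 0.0529) and median scaling (0.62, 0.135). With each array left out in turn 7 of the 12 calls under shCTRL remained, and 8 of the 9 where labelled shIRF1. The 5 falls under shCTRL became 3 without shCTRL array 2 or 3, or shCTRL array 1 or 2 with CDDP. Between the shRNA labels limma called 0 of the 25 without CDDP (4 at an unadjusted p under 0.05), beside 6.93% of named genes, and 1 with CDDP, beside 4.46%, with medians of -0.06 and -0.02. That was TNIP1, a partner of TNFAIP3 (0.89, SE 0.21, adjusted p = 0.0256), which did not pass without shCTRL array 1 or 3 with CDDP, or array 1 or 2 labelled shIRF1 with CDDP (adjusted p = 0.061 to 0.112), and 1 adaptor was lower without array 1 labelled shIRF1 with CDDP.

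Downstream, 4 other caspases were tested (10 listed), with medians of -0.19 and -0.10 with CDDP and 0.14 and 0.16 between the shRNA labels. With CDDP 1 rose and 1 fell under shCTRL, and 1 fell where labelled shIRF1, beside 31.7% and 26.6% of named genes called. CASP4, an inflammatory caspase, rose under shCTRL with CDDP (log2 0.75, SE 0.18, limma adjusted p = 0.0054), which did not pass with median scaling (0.70, adjusted p = 0.0754). CASP6, an executioner, fell (-0.75, SE 0.22, adjusted p = 0.0168), which did not pass without shCTRL array 1 (-0.69, adjusted p = 0.0653) or shCTRL array 2 with CDDP (-0.53, 0.09), and CASP9 fell as well without array 1 labelled shIRF1 with CDDP (-0.57, 0.0425). Where labelled shIRF1, CASP9, the initiator of the mitochondrial route, fell with CDDP (-0.77, SE 0.21, adjusted p = 0.018), but not without array 2 labelled shIRF1 (-0.70, 0.0635) or array 2 (-0.61, 0.0913) or 3 (-0.72, 0.0528) of these with CDDP. Between the shRNA labels limma called 0 of the 4 without and with CDDP, beside 6.93% and 4.46% of named genes. An unadjusted p under 0.05 was reached by 1 and 0 of them.

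Of 13 genes of the mitochondrial arm, caspase inhibitors and substrates, 1 rose and 2 fell with CDDP under shCTRL, beside 31.7% of named genes called. On arrays labelled shIRF1 2 rose and 2 fell, beside 26.6%, and the medians were -0.01 and -0.02. DFFB, the nuclease that cuts DNA in apoptosis, fell 3.19-fold and 2.95-fold (-1.68 and -1.56, SE 0.22 each, limma adjusted p = 4.17e-05 and 0.000103). BIRC6, a caspase inhibitor, fell 2.48-fold and 2.35-fold (-1.31 and -1.23, SE 0.21 each, adjusted p = 0.000261 and 0.000555). CYCS (cytochrome c), which activates caspase-9 once released, rose under shCTRL (0.87, SE 0.22, adjusted p = 0.00902), and the count of 1 became 2 without shCTRL array 1 with CDDP, when BID also passed (0.68, adjusted p = 0.017). The 2 rises where labelled shIRF1, CYCS and BID, became 0 without array 1 or 2 labelled shIRF1 or array 2 of these with CDDP, and 1 without shCTRL array 2 or 3, array 3 labelled shIRF1 or array 3 of these with CDDP. GSDME, a pore-forming substrate of caspase-3, was 2.02-fold lower on arrays labelled shIRF1 with CDDP (-1.01, SE 0.17, adjusted p = 0.00263), which did not pass with median scaling (-0.99, adjusted p = 0.0853). Without CDDP it was lower by less (-0.64, SE 0.17, adjusted p = 0.0361). This call was lost without any 1 of the 6 arrays compared (adjusted p up to 0.138) and with median scaling (-0.67, 0.359). The list's medians between the shRNA labels were -0.07 and 0.11.

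For the difference between CDDP responses limma called 0 genes of every list beside 0.072% of named genes, with 1, 3, 3, 1 and 0 at an unadjusted p under 0.05 in the order described. TNFRSF11B passed there when no background was subtracted (log2 -1.0, adjusted p = 0.0483) and on the deposited matrix values (-1.14, adjusted p = 0.0417).

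**Figure D3:**
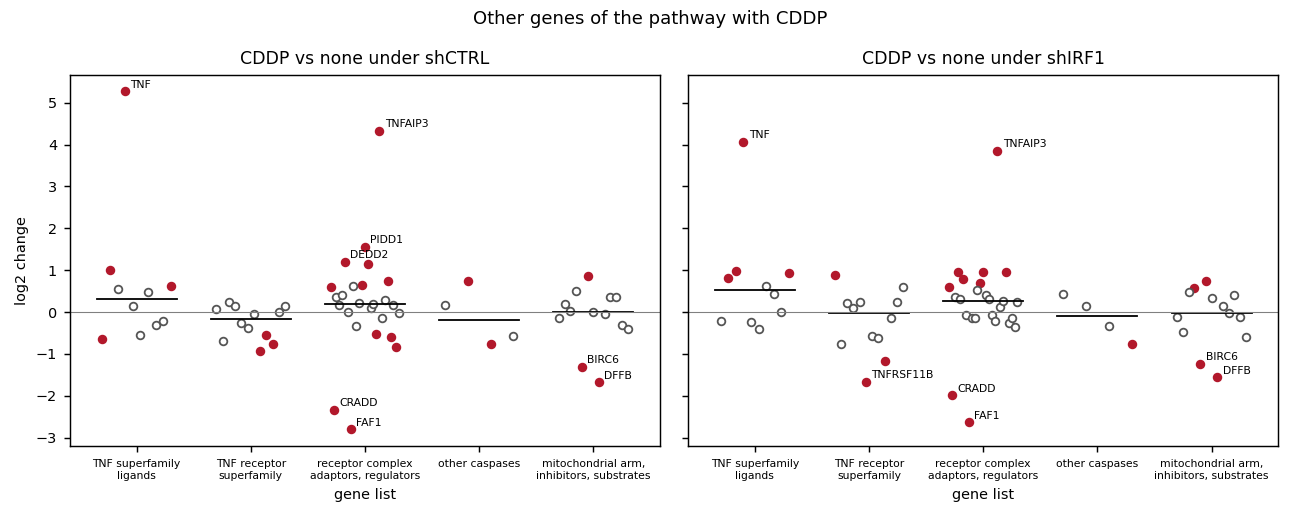
Log2 change with CDDP (vertical axis) of the other tested genes of the pathway under either shRNA label, by list, with filled red points for limma adjusted p-values under 0.05 and a bar at each list's median. TNF (fitted values of 5.27 and 4.07) and TNFAIP3 (4.34 and 3.85) lie highest and FAF1 (-2.80 and -2.64) and CRADD (-2.33 and -1.99) lowest under either label.

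For each gene the 3 named genes with the most similar profile were read over the 12 arrays, as a description in which the arrays fall into 4 groups. TNFRSF10D ran closest to FBXO45, C19orf48P and COQ10A (Pearson r = 0.98 each), and the brightest TNFRSF10B probe to WDR33, GDF15 and TTC13 (0.97, 0.97 and 0.96). TNFSF10 ran closest to NIPSNAP1, CD34 and LRRC37A4P (0.95, 0.95 and 0.93), TNFRSF10A to FICD, ZNF562 and CC2D1B (0.95, 0.91 and 0.91), and TNFRSF12A to RELA, H1-10 and AFMID (0.96, 0.95 and 0.92). CASP8 ran closest to SNX8, DTD2 and NOMO3 (0.98, 0.93 and 0.90) and CFLAR to RRAGC, NME6 and MTPAP (0.95, 0.92 and 0.92).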

How the data were processed

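The authors' deposited table gives, per the file headers, the mean signal of a probe's beads on each array, a linear intensity not scaled between arrays, and a detection p-value against the negative controls of that array. Per the submitters' processing notes BeadStudio 2 was used, and per the labels' protocols total RNA was turned into biotinylated cRNA. The deposited series matrix holds a further linear intensity, a straight line of the same signal on each array (factors of 1.37 to 2.66), used as an alternative. What set the factors stays unknown.

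The neqc function of limma (3.58.1, under R 4.3.3) normalized the signals (normexp background from the detection p-values, offset 16, quantiles, log2). Every probe stayed a feature, 30109 probes with 1 symbol, 8 with several and 17196 unnamed here, with 30070 symbols brought up to date through Entrez identifiers (GRCh38.p14). Probes detected at 0.05 on at least 3 arrays, 22260 in all, entered a limma fit (lmFit, eBayes) with 4 group means over 12 arrays (8 residual and 7.19 prior degrees of freedom), adjusted by Benjamini-Hochberg over all of them. All p-values are two-sided, and the number of arrays limits their precision. Where no array of a group detected a probe, the difference is a bound against the lowest detected level of each array. Such a bound compares group means and leaves out the spread between arrays. The fit was tested on simulated data with independent noise and changes in the group labelled shIRF1 alone. Those data hold no CDDP effect and no deviation shared by same-numbered arrays, so they do not test the fit under either.

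The alternatives were background, offset, scaling, deposited matrix values, detection filters, array weights, a variance trend, only the groups compared, 1 probe per gene, the replicate block and each array left out. Named are IRF1, every member probe, up to 4 genes per list and comparison, and the 3 most similar genes. TNFRSF10B probe values were not averaged. Members and lists were chosen with earlier results of these data known.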

Additional observations from a re-analysis of the deposited data

How the results depend on the processing

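Of the counts of called genes among the 7 tested, the one between the shRNA labels without CDDP was 2, and became 1 with median scaling (TNFRSF10B lost) and 1 when detection under 0.01 was required on all 12 arrays, where TNFSF10 is not tested. With CDDP the count of 0 became 1 with no background correction (TNFRSF10B). With CDDP on arrays labelled shIRF1 the 4 called genes became 2 to 5 when 1 array was left out, with 2 without array 1 labelled shIRF1 with CDDP and 5 without shCTRL array 3 with CDDP. Left-out arrays gave 2 to 2 called genes without CDDP, 0 to 0 with CDDP, 2 to 2 with CDDP under shCTRL and 0 to 0 for the difference between responses. The cause of these changes was not tested, apart from the stricter filter, which removes TNFSF10. No member probe reversed a called direction. Over all alternatives and comparisons 1083 values of member probes kept their side of the threshold, 4 gained a call and 10 lost one.

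Replicate numbers in the labels recur in each group. Same-numbered arrays deviated together at r = -0.01 to 0.22 (median 0.12 over 18 pairs) and other pairs at -0.22 to 0.10 (median -0.08 over 36 pairs). Not every pair passed 0.1, so the numbers were not taken as pairs, although 10 of 12 arrays correlated best with an array of their own number. With the replicate number as a block, 2, 0, 2, 5 and 0 genes were called in the 5 comparisons, CFLAR being the addition.

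Over all probes, median scaling cut the calls from 1189 to 567, 795 to 352, 5850 to 3700 and 4711 to 2671 in the 4 pairwise comparisons. With only the compared groups in the fit, 795 became 385. Leaving out shCTRL array 1 or 3 or array 1 labelled shIRF1 gave 710, 722 and 661 in place of 1189, and leaving out array 1 or 3 labelled shIRF1 with CDDP gave 436 and 412 in place of 795. The 18 calls of the difference between responses ranged from 4 to 28. Signals near background limit TNFSF10, TNFRSF10A, CASP8, FAS and the TNFRSF10B probes ILMN_1812915 and ILMN_2331010. The fold changes of those tested depend on the processing, the background step included.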
